A study of Mus musculus with 7 samples.

Results

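Fibroblasts, the matrix-producing cells of the heart wall, and vascular endothelium were compared between an infarcted and a sham-operated heart preparation of neonatal mice that lack Mertk. Both classes were taken by a fixed rule from single-cell libraries. A barcode was kept with at least 500 UMIs (unique molecular identifiers, 1 per captured transcript), at least 300 genes, at most 15% mitochondrial UMIs and no UMI of Ptprc, the gene of the leukocyte antigen CD45. Fibroblasts were the kept barcodes with at least 1 UMI of Pdgfra, a receptor typical of fibroblasts, and none of Cdh5, the cadherin of endothelial junctions. Endothelium had at least 1 UMI of Cdh5 and none of Pdgfra. The rule found 1416 cells among the 9218 barcodes kept before the Ptprc filter in the 2 knockout libraries, and 40158 barcodes were kept in the series.

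The 2 libraries compared are Mertk KO P1 MI and Mertk KO P1 sham, called the infarct library and the sham library here. Both are hearts of mice labelled MerTK KO at the age P1, 1 after myocardial infarction and 1 after the sham operation. Beside them stand 3 libraries of C57BL6/J mice at P1, a common inbred strain taken as wild type (WT): WT P1 sham and WT P1 MI replicates 1 and 2. The labels do not give the time between surgery and harvest, the number of hearts in a library, the strain background of the knockout or the part of Mertk deleted, and a 3' tag does not check a deletion farther upstream. Per the labels' protocols the cells were freed with collagenase and DNase, dead cells were removed, and CD45+ cells were enriched and put back with the others at 2 to 1, so shares of a library do not give shares of the heart. With 1 library a side no comparison here carries a test. Intervals are exact 95% intervals that cover counting error alone, and the distance between the WT MI libraries is printed beside the values as a view of how far 2 libraries of a group lie apart.

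Fibroblasts keep the interstitial collagen network and the basement membranes of the heart, and after an infarct they take up injury signals, secrete chemokines and remodel matrix. Endothelium lines the vessels, feeds the muscle with oxygen and fatty acids, and in injured tissue displays selectins on which neutrophils roll. In the first days of life the mouse heart can still regenerate after such an injury. Mertk is a receptor with which macrophages bind and engulf dying cells.

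The fibroblast class held 584 cells in the sham library (median 14930 UMIs) and 454 in the infarct library (median 13665). The endothelium class held 214 cells (median 9419.5 UMIs) and 164 cells (median 6180.5). Summed over a class, the depth ranged from 1729177 UMIs for endothelium of the infarct library to 9778736 for fibroblasts of the sham library. Levels are given as CPM, counts per 1000000 UMIs of the class. The 10 fibroblast markers summed to 36376 and 23799 CPM in sham and infarct fibroblasts, against 448 and 1069 CPM in endothelium. The 10 endothelial markers summed to 6905 and 5524 CPM in endothelium, against 205 and 101 CPM in fibroblasts. Over the class as a whole, each class was higher in its own markers than the other in both libraries, although part of the infarct fibroblasts carried mesothelial markers (below). The kept barcodes of the 2 libraries shared 6 barcode sequences, none of them in these classes.

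The 2 libraries also differed in ways that touch every result below. Neutrophil barcodes, with 2% or more of their UMIs from S100a8 and S100a9 and no Pdgfra or Cdh5, made up 19.6% of the sham and 51.0% of the infarct library. Xist and Tsix summed to 873 and 57.8 CPM in fibroblasts and 4 Y-linked genes to 0.102 and 83.8 CPM, so that injury and the sex of the mice cannot be told apart. Ribosomal protein genes took 18.1% and 22.2% of fibroblast UMIs, and Malat1, a nuclear RNA, stood at 21760.2 and 11087 CPM. Of the other lineages, cardiomyocyte markers in fibroblasts summed to 155 and 32.1 CPM, mural markers to 100.4 and 37.8 CPM, and macrophage markers to 15.1 and 42.3 CPM. The median log2 ratio of infarct to sham in fibroblasts was 6.86 for the measured erythroid markers and 1.53 for the T cell markers. That of the haemoglobin gene Hba-a1 ranged from 0.88 to 6.81 over the alternative ways of processing. The part of these shifts in the results was not tested.

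Many of the infarct fibroblasts by the rule carried mesothelial markers. Mesothelium, the sheet on the heart's surface, expresses Upk3b, Msln and the keratins Krt19 and Krt8, and can carry Pdgfra. Cells with at least 2 UMIs over these 4 genes made up 109 of 454 infarct fibroblasts, that is 24.0% (exact binomial interval 20.1 to 28.2%), and 40.1% of the class UMIs. In the sham library they were 11 of 584, that is 1.88% (0.944 to 3.35%). WT P1 sham had none of 291, which at a limit of 3 cells allows a share of up to 1.03%, and WT P1 MI replicates 1 and 2 had 4.90% and 1.84%. With every cell thinned to 1500 UMIs, a UMI of these genes was found in 19% of infarct and 1.89% of sham fibroblasts, so the gap was also seen at equal depth. In the infarct library Tcf21, a cardiac fibroblast gene, was at 2.80 CPM in these cells and 49.2 CPM in the other fibroblasts. Postn, a matrix gene, was at 11.2 and 1055 CPM. Other fibroblast markers lay nearer, Dcn at 3148 and 6012 CPM, Col1a1 at 1503 and 5819.5 CPM and Pdgfra, which the rule used, at 152 and 181 CPM. The fibroblast label thus held only in part for these cells. Most of these infarct cells lay far from the gate: 85 held 10 or more such UMIs, 13 held 2 to 4, and 11 further cells held 1. The gate was set after the data were seen. Each fibroblast value below is therefore followed, where it matters, by its value in the remaining fibroblasts, meaning the class without these cells.

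**Figure D1:**
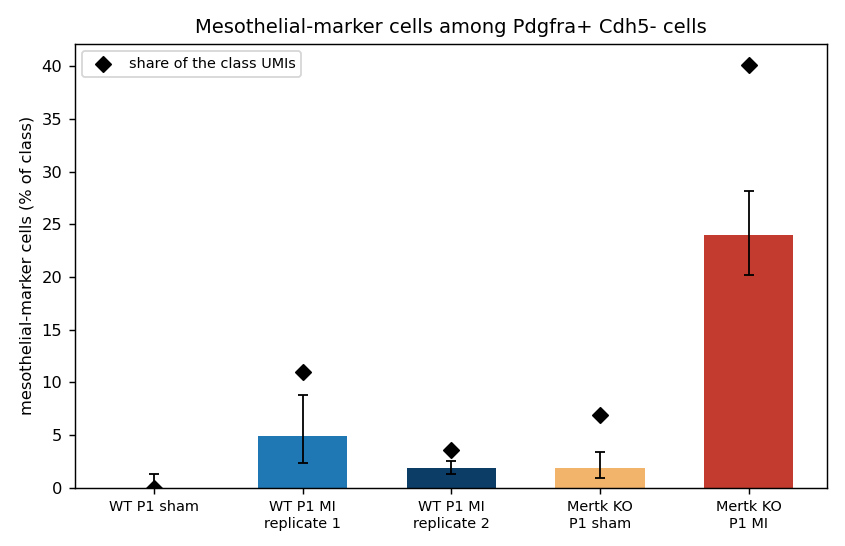
Share of mesothelial-marker cells in the fibroblast class of each P1 library, in percent of cells (bars, with exact 95% binomial intervals) and in percent of the class UMIs (diamonds). Mertk KO P1 MI stands at 24.0% of cells and 40.1% of UMIs, and the other 4 libraries at 0 to 4.90% of cells.

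Fibroblasts differed at many genes. Of 12200 genes with at least 30 UMIs over both libraries, 685 (5.61%) were at least 2-fold higher in the infarct library and 2009 (16.5%) at least 2-fold lower. These shares are the background for each fibroblast list count below, and a count near them is no result about the list. The median ratio of all genes lay below 0, at −0.32 on the log2 scale. TMM scaling, which centres the bulk of genes, shifts every fibroblast ratio by 0.27 and gave 980 higher and 1226 lower genes, so that the share of higher calls among all calls moved from 25.4% to 44.4%. Averaging the CPM of single cells gave 683 higher and 1210 lower genes. The remaining fibroblasts gave 400 higher (3.46%) and 1398 lower genes (12.1%). For scale, the WT MI libraries differed from each other by 2-fold or more at 8.60% of genes.

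Acute-phase genes, which the liver and inflamed stroma secrete in response to interleukin 1 and interleukin 6, were among the largest gains. Saa3, serum amyloid A3, was at 476 CPM in the sham library and 18902 CPM in the infarct library. WT P1 sham and WT P1 MI replicates 1 and 2 had 0.383, 25.3 and 657 CPM. In the remaining knockout fibroblasts it was at 209 and 4703 CPM (log2 ratio 4.49, interval 4.42 to 4.56), and 85.1% of the infarct UMIs came from mesothelial-marker cells. In the mesothelial-marker cells it was at 4071 CPM in the sham and 40095 CPM in the infarct library, so that Saa3 was higher after infarction in both kinds of cell. The gene (ENSMUSG00000040026) lies on chromosome 7, positions 46711998 to 46715700, minus strand (GRCm38, GENCODE vM21). In the sham library 5 cells held 62.8% of its UMIs. After thinning, a Saa3 UMI was present in 54.5% (49.8 to 59.2%) of infarct and 5.34% (3.65 to 7.49%) of sham fibroblasts, unthinned in 71.7% and 11.9%.

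Hp encodes haptoglobin, the plasma protein that binds free haemoglobin. It was at 1031 CPM in the sham library and 12278 CPM in the infarct library (log2 ratio 3.57, interval 3.54 to 3.60), and at 1057 and 11718 CPM in the remaining fibroblasts. WT libraries had 0.383, 18.4 and 572 CPM, in the order sham, MI replicate 1, MI replicate 2, which is kept below. The knockout sham library therefore already lay above the 3 WT libraries in Hp, and the infarct library above all of them. A Hp UMI was found after thinning in 71.3% (66.9 to 75.4%) of infarct and 15% (12.2 to 18.1%) of sham fibroblasts, unthinned in 75.7% and 22.7%. In infarct endothelium, which is not known as a source of Hp, the thinned share was 11.1% (6.61 to 17.2%). Its locus is on chromosome 8, positions 109575128 to 109579172, minus strand.

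Lcn2, a lipocalin that withholds iron from bacteria by binding their siderophores, was at 149.8 CPM in the sham library and 3272 CPM in the infarct library (log2 ratio 4.45, interval 4.37 to 4.53) and at 105 and 2673 CPM in the remaining fibroblasts. WT values were 0.575, 1.43 and 68.7 CPM. Neutrophils also make Lcn2. Per cell, infarct fibroblasts held 15.8 times the Lcn2 UMIs of endothelium. Over the alternatives, which include subtracting a scaled neutrophil profile, the log2 ratio of Lcn2 in fibroblasts ranged from 4.44 to 4.71. The part of neutrophil RNA in its level was not tested otherwise. Timp1, an inhibitor of matrix metalloproteinases, was at 431 CPM in the sham library and 7977 CPM in the infarct library (log2 ratio 4.21, interval 4.16 to 4.25), and at 363 and 6096 CPM in the remaining fibroblasts. WT values of Timp1 were 46.0, 70.2 and 389 CPM. For Lcn2 and Timp1 the order of the libraries was that of Hp, with the infarct library highest.

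Other named gains were carried mainly by the mesothelial-marker cells. Slpi, a secreted inhibitor of neutrophil proteases, was at 13.5 CPM in the sham library and 906 CPM in the infarct library. Of its infarct UMIs 95.6% lay in those cells, and the remaining fibroblasts had 1.76 and 66.3 CPM. After thinning, a Slpi UMI was found in 5.23% of the remaining infarct fibroblasts and 5.23% of infarct endothelium, unthinned in 25.3% and 15.7%. The part of neutrophil RNA in the remaining fibroblasts was not tested. Dmkn, dermokine, was at 56.3 and 614 CPM in sham and infarct, and 98.2% of its infarct UMIs were in those cells. Chil1, a chitinase-like lectin, was at 4.91 and 175 CPM (97.4% there), Serpinb2, an inhibitor of plasminogen activators, at 16.7 and 320.2 CPM (88.0%), Clca3a2 at 6.95 and 124 CPM (93.7%) and Prr15 at 4.70 and 80.3 CPM (98.4%). For these genes the class ratio holds both the number of mesothelial-marker cells and the level within them. Within the mesothelial-marker cells alone, Slpi was at 172 and 2158 CPM and Chil1 at 65.2 and 425 CPM, the sham values resting on 11 cells. Chl1, an adhesion molecule of the L1 family, differed in the remaining fibroblasts too, at 5.38 and 81.5 CPM (log2 ratio 3.91, interval 3.49 to 4.38). Dio3, the deiodinase that inactivates thyroid hormone, was also higher there, at 0.879 and 68.2 CPM (log2 ratio 6.19, interval 5.28 to 7.50).

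Over the acute-phase and complement list, 9 of 21 measured genes were at least 2-fold higher and 2 lower (median log2 ratio 0.77). Without genes marked as neutrophil free RNA (below), 8 were higher. The remaining fibroblasts had 10 of 19 higher (median 1.06). The WT medians were 0.67 for MI replicate 1 and 2.26 for replicate 2. Cfb, complement factor B, was at 32.8 and 274 CPM in sham and infarct and at 21.5 and 92.8 CPM in the remaining fibroblasts. Serpina3n, a serine protease inhibitor, was at 218 and 459 CPM, and at 232 and 670.5 CPM without the mesothelial-marker cells. C3, the central complement protein, was at 752 and 1235 CPM in the class but at 467 and 998 CPM in the remaining fibroblasts, beside WT values of 0, 487 and 392 CPM. Il1r1, the receptor through which interleukin 1 acts, was at 52.2 and 146 CPM and at 52.5 and 129 CPM. Orm1, orosomucoid, reached 9.99 CPM (80 UMIs) with 100% in mesothelial-marker cells. The 2 lower genes were C4b and Socs3. Socs3, the feedback inhibitor of interleukin 6 signalling, was at 161 CPM in the sham library and 75.8 CPM in the infarct library.

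The promoters of the leading fibroblast genes by ratio, not all of them acute-phase genes, were searched, and those of Saa3 and Slpi are shown for 1 sequence feature. C/EBP factors, basic leucine zipper proteins of the acute-phase response, bind variants of the letters TTGCNNAA. Promoter windows of 300 bases, 250 before and 50 after the start in RefSeq on GRCm38.p6, were matched for 10 of the 12 leading fibroblast genes. The letters TTGCNNAA, on either strand, were in 6 of these 10 (Clca3a2, Dmkn, Lcn2, Saa3, Serpinb2 and Slpi) and in 10.8% of all 27025 windows. In Lcn2 no match lay in the upstream bases outside annotated exons. The looser form TTNCNNAA was in 9 of them and in 40.7% of all windows. A strict form of the NF-kB motif was in 1 of them and in 1.43% of all windows, and a loose form in 2 and 20.5%. These 4 forms and 2 for hypoxia were searched, the genes were chosen by their ratio, and a match is a run of letters, not a binding site. Of the 6 genes with TTGCNNAA, all but Lcn2 had most of their infarct UMIs in mesothelial-marker cells (above). The count thus describes the class by the rule and not the remaining fibroblasts. Capitals mark TTGCNNAA or its reverse complement in the stretches upstream of the start that hold no annotated exon, on chr7:46715701-46715926 (minus strand) for Saa3, 99 bases before the start, and on chr2:164356508-164356757 (minus strand) for Slpi, 241 bases before it.
Saa3: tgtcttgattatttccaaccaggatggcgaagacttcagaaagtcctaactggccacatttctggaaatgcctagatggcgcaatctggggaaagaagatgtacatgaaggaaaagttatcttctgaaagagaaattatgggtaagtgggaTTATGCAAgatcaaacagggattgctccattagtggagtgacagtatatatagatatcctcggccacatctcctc
Slpi: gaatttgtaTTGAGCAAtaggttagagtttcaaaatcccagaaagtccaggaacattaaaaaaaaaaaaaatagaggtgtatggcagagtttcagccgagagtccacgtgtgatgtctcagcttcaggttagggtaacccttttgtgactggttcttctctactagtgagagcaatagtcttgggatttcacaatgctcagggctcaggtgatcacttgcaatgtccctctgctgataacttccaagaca

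Chemokines and cytokines call leukocytes into the tissue and tell them to mature. Of 20 measured members, 8 were at least 2-fold higher and 2 lower (median 0.40), and 9 of 19 were higher in the remaining fibroblasts (median 0.65). The higher genes include Cxcl2 and Il1b, which were marked as neutrophil free RNA. WT medians were 1.05 and 1.90. Cxcl5, a ligand of the neutrophil receptor Cxcr2, was at 69.5 CPM in the sham library and 1488 CPM in the infarct library (log2 ratio 4.42, interval 4.31 to 4.53) and at 65.4 and 999 CPM in the remaining fibroblasts, beside 18.2, 8.60 and 83.4 CPM in WT. Csf3, the neutrophil growth factor G-CSF, was at 6.44 CPM in the sham library and 63.0 CPM in the infarct library (5.93 and 35.0 CPM without the mesothelial-marker cells). Other attractants were under the 2-fold bound: Cxcl1, another Cxcr2 ligand, was at 615 and 728 CPM and the monocyte attractants Ccl2 and Ccl7 at 146 and 199 CPM and at 168 and 211 CPM. Cxcl12, which holds Cxcr4+ cells in place, was at 132 CPM in the sham library and 369 CPM in the infarct library, and its ratio was larger in the remaining fibroblasts, at 140.3 and 585 CPM, with WT values of 69.0, 72.4 and 99.7 CPM. The alarmin Il33 was at 51.4 and 199 CPM and the membrane chemokine Cxcl16 at 56.6 and 166 CPM. The interferon-induced Cxcl10 was lower, at 45.7 CPM in the sham library and 13.7 CPM in the infarct library. Cxcl13, which attracts B cells, was at 67.5 CPM in the sham library and 6.24 CPM in the infarct library but rested on 19 and 8 cells with a UMI.

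Glycolysis and hypoxia genes were higher in infarct fibroblasts. Cells short of oxygen stabilise Hif1a, which switches on glycolytic enzymes and lactate export. Of 29 measured members, 16 were at least 2-fold higher and none lower, with a median log2 ratio of 1.16 against −0.32 for all genes. Among the higher genes Hilpda was marked as neutrophil free RNA. The remaining fibroblasts had 14 higher and 1 lower (median 0.98), and the median of the class stayed between 0.97 and 1.42 over all alternatives. In WT the medians were 0.18 and 0.11. The difference between genotypes was not tested.

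Along the pathway, the triose isomerase Tpi1 was at 203 and 685 CPM in sham and infarct, and Gapdh at 1209 CPM in the sham library and 3545 CPM in the infarct library (log2 ratio 1.55, interval 1.52 to 1.58), 1179.9 and 2835 CPM in the remaining fibroblasts. The ATP-yielding kinase Pgk1 was at 142 and 439.9 CPM and Pkm, which makes pyruvate, at 284 and 957 CPM (274 and 755 CPM in the remaining fibroblasts). Ldha, which turns pyruvate to lactate, was at 344 CPM in the sham library and 836 CPM in the infarct library (log2 ratio 1.28, interval 1.22 to 1.34), 349.8 and 751 CPM in the remaining fibroblasts and 275, 261 and 324 CPM in WT. Slc16a3, the transporter that exports the lactate, was at 43.8 and 156 CPM. These genes were thus higher by 2-fold or more in the class, as were the glucose transporter Slc2a1 and the earlier enzymes Pfkl and Aldoa. The hexokinases Hk1 and Hk2 were not, at 28.6 and 17.4 CPM and at 70.3 and 73.2 CPM. Hif1a itself was at 116 CPM in the sham library and 359.8 CPM in the infarct library (112 and 314 CPM in the remaining fibroblasts), and Egln3, a prolyl hydroxylase that marks Hif1a for decay, at 14.8 and 59.8 CPM (10.3 and 17.3 CPM in the remaining fibroblasts). Mif, a cytokine with hypoxia-responsive expression, was at 258 CPM in the sham library and 1083 CPM in the infarct library (log2 ratio 2.07, interval 2.01 to 2.13), 253 and 959.6 CPM in the remaining fibroblasts. Vegfa, the vessel growth factor, was near level in the remaining fibroblasts, at 45.8 and 51.1 CPM. Ndrg1, also hypoxia-induced, went against the list there, at 30.1 and 8.55 CPM.

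The letters ACGTG, the core of a hypoxia response element, were in the promoter windows of 10 of the 16 higher members and of 15 of 27 list members matched, against 19.7% of all windows. For GCGTG the counts were 8 and 14, against 32.5%. The list was drawn from genes known for such control, so these shares are no support for it. Ldha holds the letters at 3 places, 2 of them read on both strands (CACGTG). Its window before the start is chr7:46845554-46845803 (plus strand, GRCm38.p6), with ACGTG and its reverse complement in capitals. Unlike for Saa3 and Slpi, the first bases after this RefSeq start were not found near the beginning of a GENCODE vM21 transcript of the gene.
Ldha: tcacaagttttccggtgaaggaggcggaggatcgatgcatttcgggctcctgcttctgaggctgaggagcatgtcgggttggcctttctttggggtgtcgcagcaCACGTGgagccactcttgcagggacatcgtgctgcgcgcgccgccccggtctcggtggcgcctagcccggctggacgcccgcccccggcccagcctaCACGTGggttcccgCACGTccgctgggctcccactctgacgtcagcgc

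**Figure D2:**
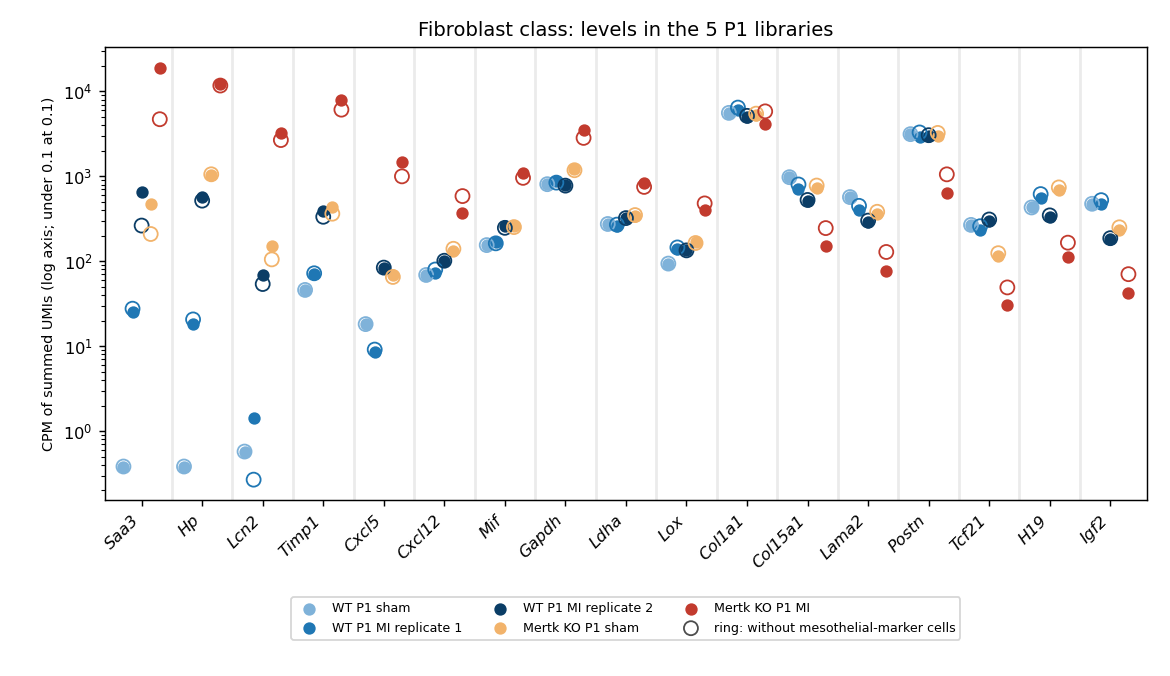
Level of 17 named genes in the fibroblast class of the 5 P1 libraries, as CPM of summed UMIs on a log axis. Dots are all cells of the class and rings the class without mesothelial-marker cells, coloured by library. Saa3 in Mertk KO P1 MI is at 18902 CPM as a dot and 4703 CPM as a ring, Postn is lowest in that library at 636 CPM, and Col1a1 lies between 4087 and 6047 CPM in all 5.

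Basement membrane genes were lower in infarct fibroblasts. These sheets of laminin, collagen IV, nidogen and perlecan surround muscle cells and capillaries. Of 15 measured genes, 11 were at least 2-fold lower and 1 higher (median −1.16). The 1 higher gene was Lama5, at 5.22 and 14.0 CPM, with 98.2% of its infarct UMIs in mesothelial-marker cells. The remaining fibroblasts had 7 of 14 lower (median −1.04), and the WT medians were −0.28 and −0.66. Col15a1, a collagen at the outer face of the membrane, was at 725 CPM in the sham library and 151 CPM in the infarct library (log2 ratio −2.27, interval −2.36 to −2.18) and at 779 and 246 CPM in the remaining fibroblasts. Lama2, the laminin chain that anchors muscle, was at 357 CPM in the sham library and 77.5 CPM in the infarct library (log2 ratio −2.20, interval −2.33 to −2.08) and at 382 and 129 CPM. For both, the infarct library was the lowest of the 5, beside WT values of 977, 714 and 511 CPM for Col15a1 and 569.9, 401 and 291 CPM for Lama2. The nidogen Nid1 was at 593 and 185 CPM, the laminin chain Lamc1 at 521 and 158 CPM and perlecan, Hspg2, at 721 and 339 CPM. Collagen IV itself was lower to a smaller degree, with Col4a1 at 1039 and 493 CPM in the class and 1103 and 648 CPM in the remaining fibroblasts.

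The interstitial matrix was divided. Of 43 measured genes of collagens, elastic fibres, proteoglycans and their modifiers, 18 were lower and 4 higher, Lox, Mmp3, Timp1 and Timp3 (median −0.82). The remaining fibroblasts had 8 lower and 3 higher (median −0.47). The main fibrillar collagens were near level there: Col1a1 was at 5254 CPM in the sham library and 4087 CPM in the infarct library in the class and at 5470.3 and 5819.5 CPM in the remaining fibroblasts, and the log2 ratios of Col1a2 and Col3a1 were 0.13 and 0.05. Collagen VI, a microfibril next to the cell surface, was lower, with log2 ratios of −1.21, −1.53 and −1.45 for Col6a1, Col6a2 and Col6a3. Elastin, Eln, was at 1517 CPM in the sham library and 346 CPM in the infarct library (log2 ratio −2.13, interval −2.19 to −2.08) and at 1570.1 and 519 CPM in the remaining fibroblasts. Osteoglycin, Ogn, a small leucine-rich proteoglycan, was at 586 and 134 CPM, and at 623 and 220.2 CPM in the remaining fibroblasts. Eln, Ogn and the collagen VI genes were thus past 2-fold lower with and without the mesothelial-marker cells. Of the modifiers, Lox, which crosslinks collagen and elastin, was higher, at 168 CPM in the sham library and 402 CPM in the infarct library and 164 and 479.9 CPM in the remaining fibroblasts, while Timp3 was higher in the class only, at 197 and 405 CPM, and at 161 and 106 CPM in the remaining fibroblasts.

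Matricellular and myofibroblast genes, which mark activated fibroblasts, did not share a direction: 3 of 27 were higher (Actn1, Spp1 and Lgals3) and 6 lower in the class, and 5 and 4 in the remaining fibroblasts. There the higher ones were Ccn4, Acta2, Tpm2, Tgfbi and Lgals3 and the lower ones Postn, Thbs4, Cilp and Meox1, and Tgfbi was marked as neutrophil free RNA. Of all genes 5.61% were higher and 16.5% lower in the class, and 3.46% and 12.1% in the remaining fibroblasts. The median of the list changed sign between them, from −0.18 to 0.13, and was 0.08 with TMM scaling. Postn, periostin, a protein of healing and developing matrix, was at 3022 CPM in the sham library and 636 CPM in the infarct library (log2 ratio −2.25, interval −2.29 to −2.20) and at 3245 and 1055 CPM in the remaining fibroblasts. The 3 WT libraries had 3137, 2934 and 2952 CPM, so the infarct library was the lowest of 5 and the sham library lay with WT. Acta2, the smooth muscle actin of myofibroblasts, was at 226 CPM in the sham library and 374 CPM in the infarct library, and at 223 and 526 CPM in the remaining fibroblasts (log2 ratio 1.23, interval 1.15 to 1.32). Tagln, another contractile gene, was at 261 and 495 CPM there. Ccn4 had a log2 ratio of 1.40 and Tpm2 of 1.13 in the remaining fibroblasts. In the remaining fibroblasts Acta2 and Tpm2 were thus above the 2-fold bound and Postn below it. Meox1, a transcription factor of activated fibroblasts, was at 106 and 24.3 CPM, and Cilp, a matrix protein of cartilage and heart, at 18.6 and 0.874 CPM. Runx1, a transcription factor, was at 39.3 and 104 CPM, and at 36.9 and 106 CPM in the remaining fibroblasts.

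Resident fibroblast genes were lower. Of 10 interstitial fibroblast markers, 7 were lower and 1, Cxcl14, higher (median −1.60), and 6 were lower in the remaining fibroblasts (median −1.06). The WT medians were −0.29 and −0.75. Tcf21, the transcription factor that cardiac fibroblasts need to form, was at 116 CPM in the sham library and 30.6 CPM in the infarct library (log2 ratio −1.92, interval −2.13 to −1.72) and at 124 and 49.2 CPM in the remaining fibroblasts. Abca8a, a membrane transporter, was at 263 and 67.2 CPM and the actin-severing gelsolin, Gsn, at 1925 and 509 CPM. Pdgfra, which the rule used, was at 205 and 181 CPM in the remaining fibroblasts. Zeb1, a mesenchymal transcription factor, was at 352 and 89.5 CPM, and Tbx20, a cardiac T-box factor, at 219 and 58.3 CPM.

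Fetal growth genes were lower as well. Imprinted genes such as Igf2 and H19 are high in newborn tissue and fall with age. Of 23 imprinted and IGF-axis genes, 12 were lower and none higher (median −1.01), and 7 were lower in the remaining fibroblasts (median −0.74). The WT medians were 0.23 and −0.05. H19, a noncoding RNA, was at 691 CPM in the sham library and 112 CPM in the infarct library (log2 ratio −2.62, interval −2.73 to −2.52), 740.3 and 166 CPM in the remaining fibroblasts and 429.9, 551 and 336 CPM in WT. Igf2, a fetal growth factor, was at 234 CPM in the sham library and 42.8 CPM in the infarct library (log2 ratio −2.45, interval −2.62 to −2.29), 251 and 70.5 CPM in the remaining fibroblasts and 475, 467 and 181 CPM in WT. Dlk1 was at 43.3 and 5.49 CPM and Mest at 291 and 56.9 CPM. In H19, Igf2, Dlk1 and Mest alike, the infarct library was below the sham library. Igfbp5, which binds IGFs, went the other way in the remaining fibroblasts, at 88.3 and 264 CPM. Of 32 growth factors, 14 were lower and 2, Areg and Rspo3, higher, against 10 lower and none higher of 30 in the remaining fibroblasts. Among them Ptn, pleiotrophin, was at 1177 CPM in the sham library and 306 CPM in the infarct library (1261 and 499 CPM in the remaining fibroblasts), while WT had 1134, 1755 and 2257 CPM. Cell-cycle genes were higher at 5 (Birc5, Aurka, Plk1, Tyms and Ccne1) and lower at 1 (Ccnd1) of 39 (median 0.43). In the remaining fibroblasts 8 were higher and 1 lower (median 0.60). Mki67, a proliferation marker, was at 99.1 and 117 CPM and Ccnd1, a G1 cyclin, at 291 and 88.1 CPM.

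The largest drops of single genes came in 2 kinds. Some were spread over many cells, such as Pcsk6, a proprotein convertase at 384 CPM in the sham library and 75.6 CPM in the infarct library, with 475 and 186 cells, and Col6a6, at 120.3 and 20.8 CPM. Others rested on few cells: Sfrp4, a secreted Wnt antagonist, was at 52.1 CPM in the sham library and 0.125 CPM in the infarct library, with 53.4% of its sham UMIs in 5 cells, and Ctla2a, a cysteine protease inhibitor, was at 116 and 7.24 CPM with 98.2% in 5 cells. Enpp2, autotaxin, which makes lysophosphatidic acid, was at 95 CPM in the sham library and 4.62 CPM in the infarct library with 34.4% of sham UMIs in 5 cells. Ccn3 was at 161 and 18 CPM, Pamr1 at 82.8 and 13.4 CPM, Adamts19 at 65.0 and 8.99 CPM and Hmcn1 at 73.8 and 16.0 CPM. Myl2, a ventricular muscle gene not made by fibroblasts, was at 50.5 and 7.12 CPM, beside the sums of cardiomyocyte markers given above.

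Among the genes the series is about, Mertk transcripts were few in fibroblasts, 63 UMIs (6.44 CPM) in sham and 58 (7.24 CPM) in infarct. WT levels were 2.30, 1.91 and 2.28 CPM, so these 3' counts were not lower in the knockout than in WT. Axl, the Mertk relative that fibroblasts do express, was at 454 CPM in the sham library and 129 CPM in the infarct library (log2 ratio −1.81, interval −1.91 to −1.72) and at 479 and 171 CPM in the remaining fibroblasts, beside 515, 399 and 194 CPM in WT. Gas6, a ligand of both, was at 42.4 and 23 CPM. For arachidonate metabolism, Ptgs1, the constitutive cyclooxygenase, was at 26.2 CPM in the sham library and 106 CPM in the infarct library, but 96.0% of its infarct UMIs lay in mesothelial-marker cells and the remaining fibroblasts had 9.34 and 7.09 CPM. Within the mesothelial-marker cells it was level, at 253 and 253 CPM. Hpgd, which degrades prostaglandins, followed the same line, at 26.2 and 252 CPM in the class and 6.04 and 8.55 CPM in the remaining fibroblasts. Ptgis, prostacyclin synthase, was at 618 and 1098 CPM and 581 and 517 CPM. Ptgs2, the inducible cyclooxygenase, was at 17.1 and 30.0 CPM, and Tbxa2r, the thromboxane receptor, at 17.4 and 10.6 CPM.

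Interferon genes were lower in 8 and higher in 1 of 25 (median −0.47), whereas the WT medians were 1.44 and 1.48. With cells thinned to 1500 UMIs the knockout median was 0.41. The 1 higher gene was Ifitm3, a membrane restriction factor, at 949.7 CPM in the sham library and 2070.0 CPM in the infarct library and 369, 639.9 and 1023 CPM in WT. Isg15 was at 18.6 and 14.2 CPM and at 3.07, 47.3 and 45.8 CPM in WT, and Iigp1, an interferon-induced GTPase, at 18.9 and 4.62 CPM and 0.192, 20.3 and 13.8 CPM. Immediate early genes, which respond to stimuli and to cell dissociation, were lower at 7 and higher at 1 (Hspa1a) of 23. Of metallothioneins and oxidative stress genes, 5 of 17 were higher (Mt1, Mt2, Slc7a11, Sod2 and Prdx6). Slc7a11 was marked as neutrophil free RNA, and 3 were higher in the remaining fibroblasts, Slc7a11, Sod2 and Prdx6. In the whole class the mitochondrial superoxide dismutase Sod2 was at 105 and 521 CPM and the metallothionein Mt1 at 751 and 2197 CPM.

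**Figure D3:**
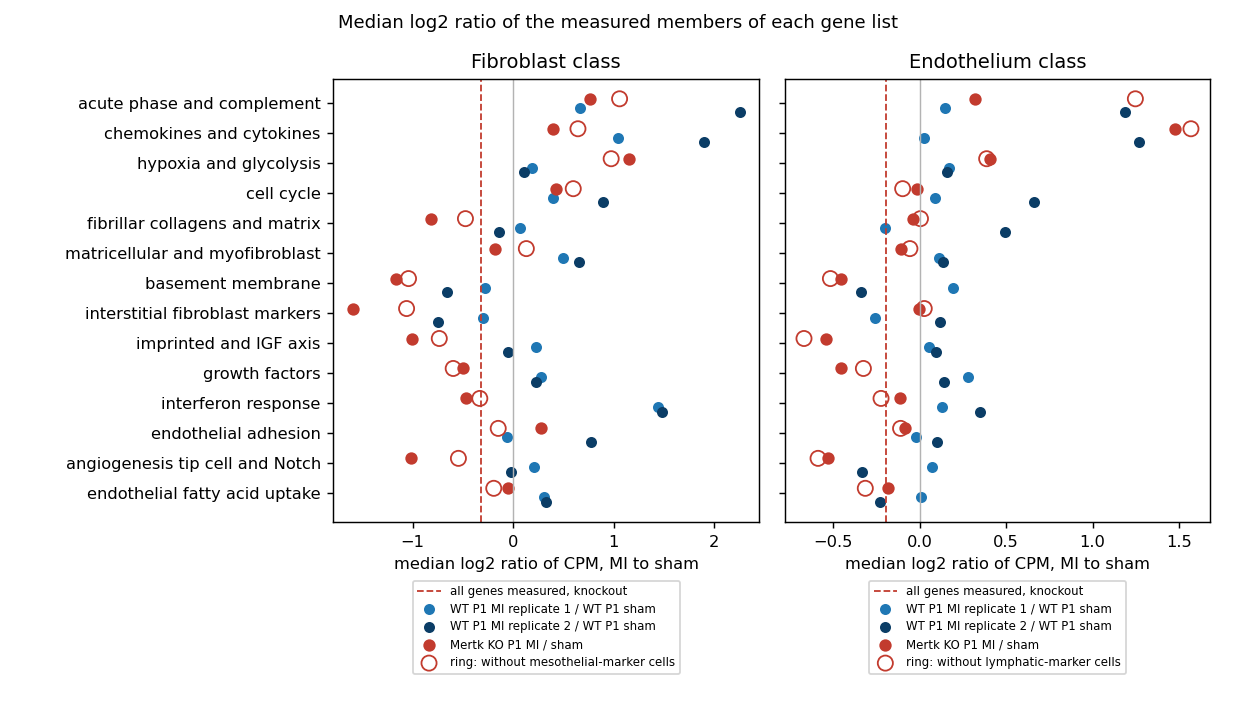
Median log2 ratio of CPM, MI to sham, over the measured members of 14 gene lists in the fibroblast class (left) and the endothelium class (right). Red dots are Mertk KO, rings the same without mesothelial-marker or lymphatic-marker cells, blue dots the 2 WT P1 MI libraries against WT P1 sham, and the dashed line the median of all genes measured in the knockout. In fibroblasts the hypoxia list is at 1.16 in the knockout and at 0.18 and 0.11 in WT, and the interferon list is at −0.47 against 1.44 and 1.48, though at 0.41 in thinned knockout cells.

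Endothelium differed at fewer genes and with fewer cells behind them. Of 9690 genes, 255 (2.63%) were at least 2-fold higher in the infarct library and 660 (6.81%) lower. List counts in endothelium below are to be read against these shares, and a count near them is no result about the list. The median of all genes was −0.20. TMM scaling, a shift of 0.18, gave 364 higher and 401 lower genes, which moved the share of higher calls from 27.9% to 47.6%. CPM over genes that are not mitochondrial, ribosomal, erythroid, sex-linked or neutrophil free RNA gave 310 and 522 (37.3% higher). The WT MI libraries were 2-fold or more apart at 10.2% of endothelial genes, a larger share than the 9.44% between the knockout libraries. In the sham library 10 endothelial cells and in the infarct library 4 held at least 3 UMIs of the lymphatic genes Prox1, Mmrn1 and Reln, with 14.8% and 2.61% of the class UMIs. Without them, in what is called the remaining endothelium, 274 genes were higher (2.94%) and 499 lower (5.36%).

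Inflammatory genes were among the largest endothelial gains. The set of higher genes depended on the cells kept. With at most 1 UMI over 5 leukocyte genes, 119 genes were higher, 55 of them among the 255. Of 12 measured chemokines and cytokines, 7 were higher and 2 lower (median 1.48), 2 of the measured ones being marked as neutrophil free RNA (below). WT medians were 0.02 and 1.27. Csf3 was at 0.307 CPM in the sham library and 149.8 CPM in the infarct library (log2 ratio 8.35, interval 6.44 to 14.24), against 0.648, 1.20 and 5.41 CPM in WT, but it came from 15 infarct cells, 5 of which held 79.5% of the UMIs. Il6, the inducer of the acute phase, was at 5.82 CPM in the sham library and 25.4 CPM in the infarct library, beside 12.5, 22.0 and 32.6 CPM in WT, and Ccl2 at 3.07 and 20.2 CPM. A few cells thus carried Csf3, whereas Il6 lay within the range of the WT libraries. Cxcl12 was lower here, at 672 CPM in the sham library and 324 CPM in the infarct library and 771 and 333 CPM in the remaining endothelium, opposite to fibroblasts.

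Of 15 acute-phase and complement genes, 7 were higher and 2, Ptx3 and Lbp, lower (median 0.32). Lcn2 was at 25.1 CPM in the sham library and 347 CPM in the infarct library (log2 ratio 3.78, interval 3.45 to 4.14), and at 5.4 and 342 CPM in the remaining endothelium. Saa3 was at 2.15 and 379 CPM with 87.5% of infarct UMIs in 5 cells, and Hp at 3.37 and 98.9 CPM. Per cell these were far below the fibroblast class, with 4 Saa3 UMIs against 334. The part of RNA leaked from fibroblasts in these endothelial levels was not tested. After thinning, 11.8% (7.12 to 18%) of infarct and 0.481% (0.0122 to 2.65%) of sham endothelial cells held a Saa3 UMI, unthinned 36.6% and 2.88%. Serpina3g, a protease inhibitor of the interferon response, was at 2.76 and 53.2 CPM in 8 and 35 cells, and Csf2rb, the shared chain of the GM-CSF and interleukin 3 receptors, at 3.68 and 57.8 CPM in 10 and 31 cells. Timp1 was at 13.2 and 108 CPM and the galectin Lgals3 at 1.84 and 53.8 CPM. Inhba, the activin subunit, was at 7.66 and 117 CPM with 94.6% of infarct UMIs in 5 cells. Glycam1, a ligand of L-selectin, was listed at 0 in the sham library and came from 1 infarct cell. The interferon-induced Ifitm1 was at 7.97 and 281 CPM, of which the neutrophil profile, scaled by S100a8 and S100a9, would give 69.6%.

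Adhesion molecules draw leukocytes from the blood. Of 15 measured, 4 were at least 2-fold higher (Selp, Sele, Ackr1 and Lrg1) and none lower. Selp, P-selectin, was at 34.9 CPM in the sham library and 232 CPM in the infarct library (log2 ratio 2.73, interval 2.43 to 3.04) in 12 and 39 cells, 5 of which held 86.8% and 55.9% of the UMIs, with WT values of 9.72, 3.60 and 38.2 CPM. Sele, E-selectin, was at 27.3 CPM in the sham library and 105 CPM in the infarct library (log2 ratio 1.94, interval 1.57 to 2.32) in 21 and 33 cells, with WT values of 39.5, 38.8 and 79.1 CPM. For Selp the infarct library stood above the other 4, whereas for Sele it was within 1.5 times of WT P1 MI replicate 2. Ackr1, a chemokine carrier of small veins, was at 0.307 CPM in the sham library and 30.7 CPM in the infarct library, 1 and 53 UMIs. Lrg1, a glycoprotein that modifies TGF-beta signalling in vessels, was at 43.5 CPM in the sham library and 204 CPM in the infarct library and at 23 and 187 CPM in the remaining endothelium. Vcam1, to which monocytes bind, was at 64.4 and 66.5 CPM, and Icam1, the ligand of leukocyte integrins, at 209.7 and 280.5 CPM, both under the 2-fold bound. Edn1, the vasoconstrictor endothelin, was at 38.6 and 97.7 CPM, and Pdgfa, a ligand of the fibroblast receptor Pdgfra, at 19.9 and 83.3 CPM.

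Some sprouting genes were lower. Tip cells lead new vessels and signal through Notch to the cells behind them. Of 35 measured genes, 6 were lower and 1, Kcne3, higher (median −0.53, from −0.60 to −0.35 over the alternatives). Among all endothelial genes 6.81% were lower and 2.63% higher, with a median of −0.20. WT medians were 0.07 and −0.33. Apln, the ligand apelin, was at 107 CPM in the sham library and 42.8 CPM in the infarct library (log2 ratio −1.31, interval −1.70 to −0.96), with WT values of 122, 163 and 86.9 CPM, while its receptor Aplnr was at 220.1 and 227 CPM. Dll4, the Notch ligand of tip cells, was at 53.6 CPM in the sham library and 23.1 CPM in the infarct library (log2 ratio −1.20, interval −1.75 to −0.71) and 85.7, 80.1 and 62.1 CPM in WT. In both the infarct library was the lowest of 5. Unc5b was at 132 and 54.4 CPM, the receptor Cxcr4 at 10.7 and 1.16 CPM, and Nrp2, a coreceptor of VEGF-C, at 373 and 175 CPM. Kdr, the main VEGF receptor, was at 806 and 494 CPM, under the 2-fold bound. Of 38 cell-cycle genes none was past 2-fold in either direction, and Mki67 was at 181 and 112 CPM.

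Markers of vessel subtypes differed by subtype, and the lymphatic ones were lower throughout. All 7 lymphatic markers were lower (median −2.47), with Prox1, which sets lymphatic identity, at 188 CPM in the sham library and 18.5 CPM in the infarct library. In the remaining endothelium Prox1 was at 4.32 and 4.75 CPM, as the gate that set the lymphatic-marker cells aside uses it. Lyve1, the hyaluronan receptor, was at 269 and 46.8 CPM and still lower there, at 49.3 and 10.1 CPM. Dtx1, Fgl2, Olfm1, Cd24a, Prss23 and Pard6g were also among the 12 lowest, with 100%, 95.2%, 93.7%, 95.7%, 92.3% and 86.3% of sham UMIs in those 10 cells. Of 11 arterial markers, 3 were lower, Gja5, Dll4 and Cxcl12 (median −0.58, but 0.02 when the CPM of single cells was averaged). Of 6 venous markers 2, Ackr1 and Selp, were higher and 1, Ephb4, lower, and of 8 capillary markers 1, Timp4, was lower. The arterial connexin Gja5 was at 17.5 CPM in the sham library and 3.47 CPM in the infarct library and 11.4, 18.4 and 11.2 CPM in WT. Npr3, a natriuretic peptide receptor of the endocardium, was at 198 CPM in the sham library and 76.3 CPM in the infarct library, with 52.9% of sham UMIs in 5 cells. Ahsg, a liver protein, was at 55.2 and 6.94 CPM with 88.9% in 5 cells. Lower genes spread over many cells were Ltbp4, which tethers TGF-beta to matrix, at 623 CPM in the sham library and 243 CPM in the infarct library (log2 ratio −1.36, interval −1.51 to −1.21), Dach1, a factor of coronary artery growth, at 111 and 40.5 CPM, Map4k2 at 67.1 and 15.6 CPM and Myadm at 335 and 142 CPM. Actc1, a cardiac muscle actin, was at 143 and 46.8 CPM, as cardiomyocyte markers in the class summed to 578 and 298 CPM.

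Capillary genes of fatty acid supply were near level. Of 17 measured genes in the fatty acid uptake list none was higher and 1 lower, beside 6.81% lower among all endothelial genes. The 1 lower gene, Timp4, is a capillary marker and not itself an uptake gene. Fabp4, the fatty acid binding protein of capillaries, was at 12251 CPM in the sham library and 12337 CPM in the infarct library, Cd36, a fatty acid translocase, at 719 and 667 CPM, and Gpihbp1, which anchors lipoprotein lipase, at 1239.5 and 1093 CPM. Hypoxia and glycolysis genes were higher at 3 (Slc16a3, Mif and Hilpda, the last marked as neutrophil free RNA) of 28 (median 0.41), against 16 of 29 in fibroblasts. Mif was at 196 CPM in the sham library and 411 CPM in the infarct library and Gapdh at 1336 and 2562 CPM. Basement membrane genes, made by endothelium too, were lower at 1 (Agrn) of 14 (median −0.45), against 11 of 15 in fibroblasts. Among all genes 6.81% were lower in endothelium and 16.5% in fibroblasts. The difference between the classes was not tested. Igf2 was at 1184 CPM in the sham library and 736 CPM in the infarct library and H19 at 2221 and 1083 CPM, both lower but Igf2 within 2-fold, as was H19 in the remaining endothelium (−0.97 on the log2 scale). Mertk was at 18.4 and 12.7 CPM beside 9.29, 15.2 and 6.31 CPM in WT. Axl was at 21.1 and 11.6 CPM, Gas6 at 72.3 and 45.7 CPM, Ptgs1 at 69.3 and 50.9 CPM, Tbxa2r at 20.2 and 19.1 CPM and Ptgs2 at 2.15 and 13.3 CPM, on 7 and 23 UMIs. Cdh5, which the rule used, was at 672 and 562 CPM. Fibroblast genes were higher in the class, Col1a1 at 15.9 and 94.8 CPM with 85.4% of infarct UMIs in 5 cells.

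**Figure D4:**
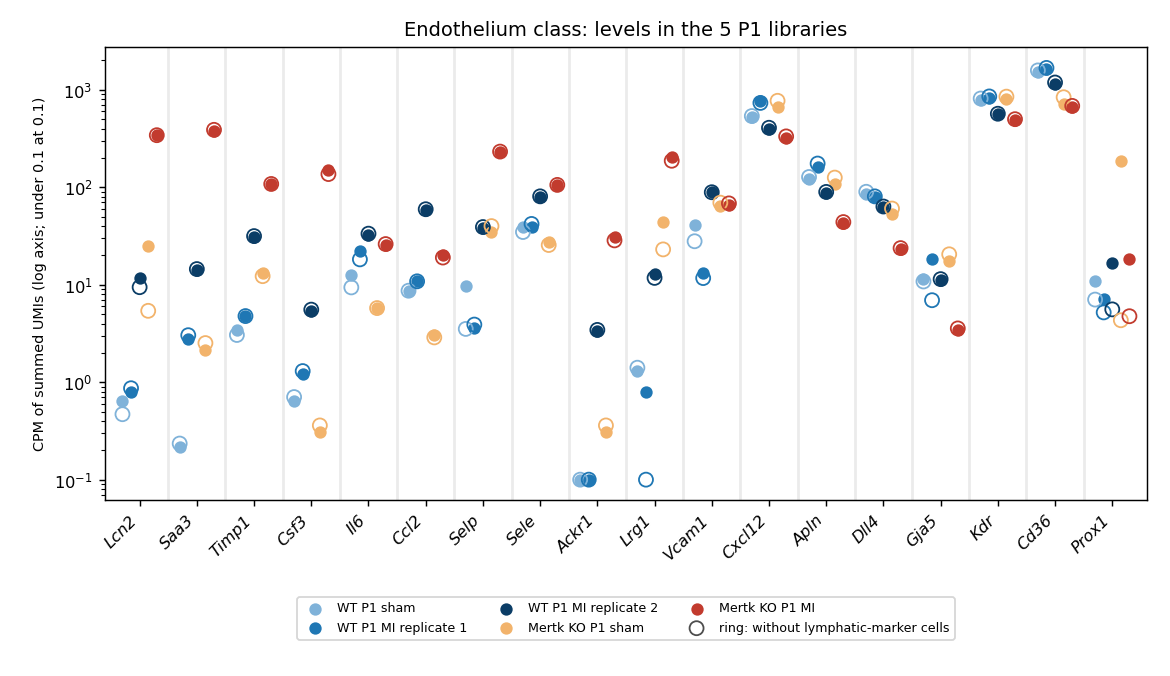
Level of 18 named genes in the endothelium class of the 5 P1 libraries, as CPM of summed UMIs on a log axis, with values under 0.1 drawn at 0.1. Dots are all cells of the class and rings the class without lymphatic-marker cells. Selp is at 232 CPM in Mertk KO P1 MI and at most 38.2 CPM in the others, Cd36 is between 667 and 1642 CPM in all 5, and Prox1 in Mertk KO P1 sham is at 188 CPM as a dot and 4.32 CPM as a ring.

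RNA that leaks from broken cells enters every droplet, and the infarct library was rich in neutrophils. S100a8 and S100a9, which neutrophils make in bulk, summed to 0.469 UMIs per sham fibroblast and 14.6 per infarct fibroblast. In endothelium they summed to 1.38 and 16.3. The infarct medians were 4 and 3 UMIs per cell, so a part of the mean sat in few cells. A gene was marked as likely neutrophil free RNA where its CPM in neutrophil barcodes was at least 5 times that of both classes and its UMIs per cell in the 2 classes lay within 2-fold. This marked 233 genes, among them S100a8, S100a9, Cxcl2, Il1b, Retnlg, Stfa1 and Wfdc17. The mark does not give the neutrophil part of a gene's level. The neutrophil profile, scaled by S100a8 and S100a9, would give 93.5% of Stfa1 UMIs in infarct fibroblasts and 72.4% in infarct endothelium. For Cxcl2 it would give 41.8% and 53.1%, for Hilpda 23.2% and 31.0%, and for Tgfbi 8.27% and 7.67%. Of the higher genes, 71 of 685 in fibroblasts (10.4%) and 54 of 255 in endothelium (21.2%) were marked. Among all genes measured these were 157 of 12200 in fibroblasts and 105 of 9690 in endothelium. Without the marked genes and the mitochondrial, ribosomal, erythroid and sex-linked ones, 5.07% of fibroblast genes and 2.09% of endothelial genes were higher.

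Some genes were higher in both classes. Among 9389 genes measured in both, 343 were higher in fibroblasts and 241 in endothelium, with 117 in common, 34.1% of the first set and 48.5% of the second. Of these shared genes 45 were marked as neutrophil free RNA. Of the other 72, 30 had more than 2 times the UMIs per cell in fibroblasts, Hp 208 times and Timp1 124 times, and 18 had more than 2 times the UMIs per cell in endothelium, Selp among them. Lower genes numbered 1255 and 594, with 248 in common (19.8% and 41.8%). Both classes come from the same 2 libraries, so this overlap is a description and not 2 independent observations.

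**Figure D5:**
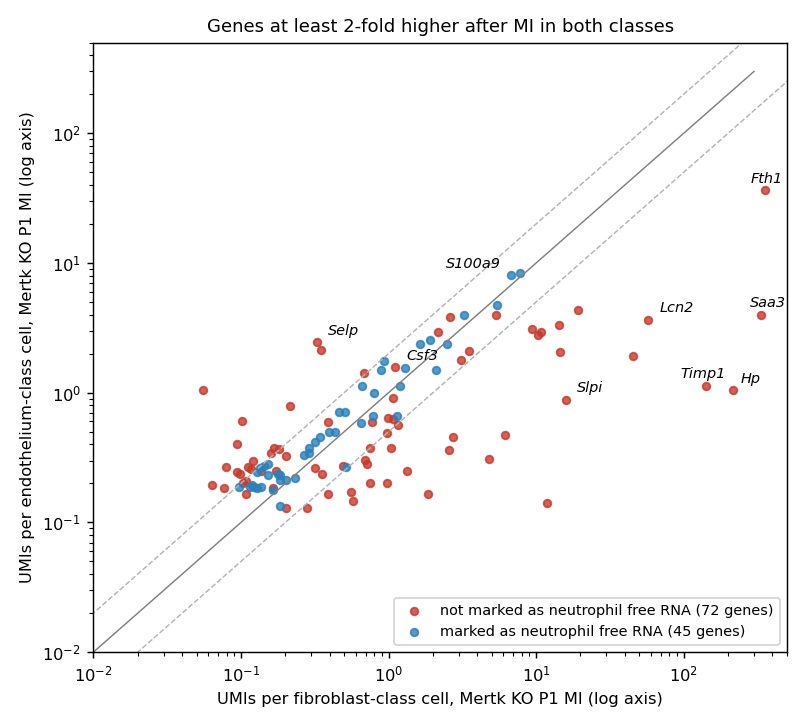
UMIs per cell in the fibroblast class (x axis) and the endothelium class (y axis) of Mertk KO P1 MI, both on log axes, for the 117 genes at least 2-fold higher after MI in both classes. The solid line marks equal counts and the dashed lines 2-fold. The 45 genes marked as neutrophil free RNA (blue) lie between the dashed lines by the rule, and Saa3, Hp, Timp1 and Lcn2 lie far on the fibroblast side.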

How the data were processed

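The values used are UMI counts, not normalized, in the 10x Genomics matrices that the authors made with Cell Ranger (version 4.0.0 in 5 libraries and 6.1.0 in 2, per the file headers, WT P1 MI replicate 2 being of the later version) on GRCm38. No barcode filter beyond that of Cell Ranger is stated. Class members and gene lists were chosen with earlier results of these data known. UMIs were summed per class and library (Python 3.11.15, scipy 1.17.1). The log2 ratio is of CPM (per 1000000 UMIs) with 0.5 counts added, over genes with at least 30 UMIs in both libraries together. A gene was called higher or lower at 2-fold. Intervals are exact binomial ones on the 2 counts, at 95%. No test was made, as 1 library stands on each side, and the labels do not say whether the WT MI replicates are separate animals.

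Named genes were, per class, the 12 highest and 12 lowest by the interval bound nearest to 0, with at least 50 CPM on the higher side and no free RNA mark, the 8 highest and lowest of the remaining cells, up to 4 per list, and a fixed set. The other names were chosen after their values were seen. Positions come from GENCODE vM21. Scrublet in scanpy 1.11.5 served as an alternative to keeping doublets, and TMM came from edgeR 4.0.16. On simulated counts of 12181 fibroblast genes, 98.5% of 200 changed genes were called with 0.317% of the others, and the intervals covered 95.8%. The simulation drew counting noise alone and changed only genes with many UMIs, past the 2-fold bound. It therefore checks the arithmetic and does not cover differences between libraries or genes carried by few cells.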

Additional observations from a re-analysis of the deposited data

Results flagged for a closer look

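Of the genes named by the rule and measured in all comparisons, 3 were at least 2-fold lower after infarction in the knockout and at least 2-fold higher in both WT comparisons, which share 1 sham library. Other genes, such as Iigp1 and Ptn in fibroblasts above, also had unlike signs. The differences were not tested. Cxcl13 in fibroblasts had a log2 ratio of −3.42 in the knockout and of 10.06 and 7.73 in WT P1 MI replicates 1 and 2. Its levels were 67.5 and 6.24 CPM in knockout sham and infarct and 0, 102 and 20.3 CPM in the WT libraries. Its WT ratios stand against a sham library with 0 UMIs and depend on the 0.5 counts added. Enpp2 in fibroblasts had −4.34 in the knockout and 5.91 and 1.92 in WT, with levels of 95 and 4.62 CPM and of 3.26, 202 and 12.6 CPM. Acta2 in endothelium had −1.32 in the knockout and 1.20 and 1.04 in WT, but 5 cells held 89.8% of the sham UMIs and 77.8% of the infarct UMIs.

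The exclusion of Ptprc took unequal numbers of cells from the libraries. Of Pdgfra+ barcodes without Cdh5, 22.1% held a Ptprc UMI in the infarct library, against 4.58% in the sham library and 1.45% and 6.62% in the WT MI libraries. Of Cdh5+ barcodes without Pdgfra, 35.7% did, against 10.8%, 6.80% and 9.54%. Those barcodes enter no comparison above.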

How the results depend on the processing

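No paired analysis was possible because each knockout group is 1 library and the labels number only the WT MI libraries. Over the alternatives, 2465 values of named genes in endothelium and 2278 in fibroblasts were recomputed. Of these, 64 and 12 had another sign than reported, 16 and 1 of them for genes reported at 2-fold or more. Of 620 and 654 list medians 53 and 20 had another sign, 1 and 1 of them for a median of 1 or more in size. Of the gene values, 2050 and 1654 stayed within the counting interval, and 575 and 603 medians moved by less than 0.5, a bound of choice.

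For fibroblasts, TMM scaling gave 1226 lower genes and the mean of per-cell CPM 1210. Thinning to 1500 UMIs gave 223 higher and 620 lower, a minimum of 100 UMIs 410 higher, no minimum 2504 and 4450, and the class without mesothelial-marker cells 400 higher. For endothelium, TMM scaling gave 401 lower genes and the mean of per-cell CPM 404 higher. Thinning gave 95 and 189, a minimum of 100 UMIs 91 and 246, and no minimum 1699 and 1963. At most 1 UMI over 5 leukocyte genes left 129 and 85 endothelial cells and 119 higher genes, 55 of them among the 255. A bound of 1.5-fold between classes marked 131 genes as free RNA in place of 233.

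For genes and medians past 2-fold, signs changed in endothelium with the leukocyte genes limited for Acta2 (1.28), Myl9 (0.42) and Rgs5 (0.89), and with high Scrublet scores removed for the macrophage marker median (−0.81). They changed with per-cell CPM for Ccl21a (0.11), Cd24a (0.37) and Prss23 (0.057), and with thinning for Cd24a (1.18) and Npr3 (0.00135). Subtracting the neutrophil profile changed Cstdc5 (−1.16) and S100a9 (−0.61). Without lymphatic-marker cells Ccl21a (0.72), Cd24a (1.94), Dtx1 (2.31), Olfm1 (0.83), Prox1 (0.17) and Prss23 (0.34) changed sign. In fibroblasts, leaving out mesothelial-marker cells changed the mesothelial marker median (−0.33) and Ptgs1 (−0.38). The gates for mesothelial-marker and lymphatic-marker cells, and leaving out cells rich in S100a8 and S100a9, were chosen after seeing the data. Ccl21a has near-identical copies and its counts are uncertain. The depth of 164 infarct endothelial cells limits every endothelial value.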
